A study of Schizosaccharomyces pombe with 8 samples.

Results

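The genes described are the fission yeast cyclin-dependent kinase gene cdc2, 3 of its cyclin genes (cdc13, cig1 and puc1), its inhibitor gene rum1 and 5 genes that set its phosphorylation (wee1, mik1, cdc25, cdr1 and cdr2). They were chosen by gene symbol in the probe table, and each was represented by 1 probe set, so that they make up 10 of the 4994 fission yeast probe sets. Messenger RNA was measured on 8 arrays in Schizosaccharomyces pombe, in 4 cultures of a strain deficient in zfs1 and 4 cultures of a wild-type strain. Both strains grew at 30 °C to an absorbance of 1 in Edinburgh minimal medium with 5 supplements (adenine, histidine, leucine, lysine and uracil). The series title describes Zfs1 as a protein that binds and destabilises mRNA. The sample titles mark the zfs1-deficient strain as deltaZFS, the usual sign for a deletion. How the deletion was made, the mating type and other alleles of the strains are not given in the sources used here.

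Cdc2 is the single kinase that drives entry into S phase and mitosis in fission yeast. It is active only with a cyclin bound, and its activity is held down before mitosis by phosphorylation of a tyrosine, which Wee1 and Mik1 add and Cdc25 removes. Cdr1 and Cdr2 inhibit Wee1 at the cell cortex, and Rum1 inhibits Cdc2 bound to its mitotic cyclin in G1. Fission yeast in exponential growth spends most of its cycle in G2, and cell size at division is set largely by this tyrosine switch.

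Signals are given on the log2 scale and differences are zfs1-deficient minus wild type, with a standard error (SE) from a model fitted to all 4969 probe sets with enough values (limma, Benjamini-Hochberg adjusted p, threshold 0.05). Array medians lay between 9.61 and 9.65. The zfs1 transcript (SPBC1718.07C) had signals of 4.18, 4.33, 4.55 and 3.51 in zfs1-deficient cultures 1 to 4, each under the strongest of the array's reporter controls, against 10.48, 10.54, 10.39 and 10.62 in wild-type cultures 1 to 4, and was at least 31.8-fold lower. No array went against its label. The arrays numbered 4 stood apart in both strains, with the lowest array weights (0.18 for zfs1-deficient and 0.23 for wild type). Results for some of the genes are therefore also given without them. Same-numbered arrays deviated together across the strains, but the numbers 1 and 3 were not told apart. The r of zfs1-deficient 3 was 0.41 with wild-type 1 and 0.26 with wild-type 3. Values from a fit with the replicate number as a block are given where they change a call, and depend on this pairing. All 10 genes were measured on all 8 arrays and lay above the brightest reporter control of every array. RNA came from whole cultures, so more cells in a cell-cycle stage and more RNA per cell cannot be told apart.

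Among the 10 genes, the G1-type cyclin gene puc1 rose in the zfs1-deficient strain, by 1.58-fold, and was the 1 gene called without the block. The Cdc2 inhibitor gene rum1, the phosphatase gene cdc25 and the Wee1-inhibiting kinase gene cdr2 rose by 1.26-fold, 1.28-fold and 1.31-fold in the fit blocked by replicate number, and missed the threshold without it. For cdc2 itself and for its mitotic cyclin gene cdc13, the 95% intervals of the difference kept to between 0.876-fold and 1.22-fold. Of all probe sets tested, 5.78% were called without the block (3.56% higher and 2.21% lower) and 24.2% with it (11.3% higher and 12.8% lower). The 10 genes gave 1 call, higher, without the block and 4, all higher, with it. Their median difference was 0.25, and that of all tested probe sets was -0.01. The groups did not overlap for 3 of the 10 genes, puc1, rum1 and cdc25, and for 15.5% of all tested probe sets. An unadjusted p under 0.05 was reached by 5 of the 10 genes (puc1, rum1, cdc25, cdr1 and cdr2) and by 20.6% of all tested probe sets.

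**Figure D1:**
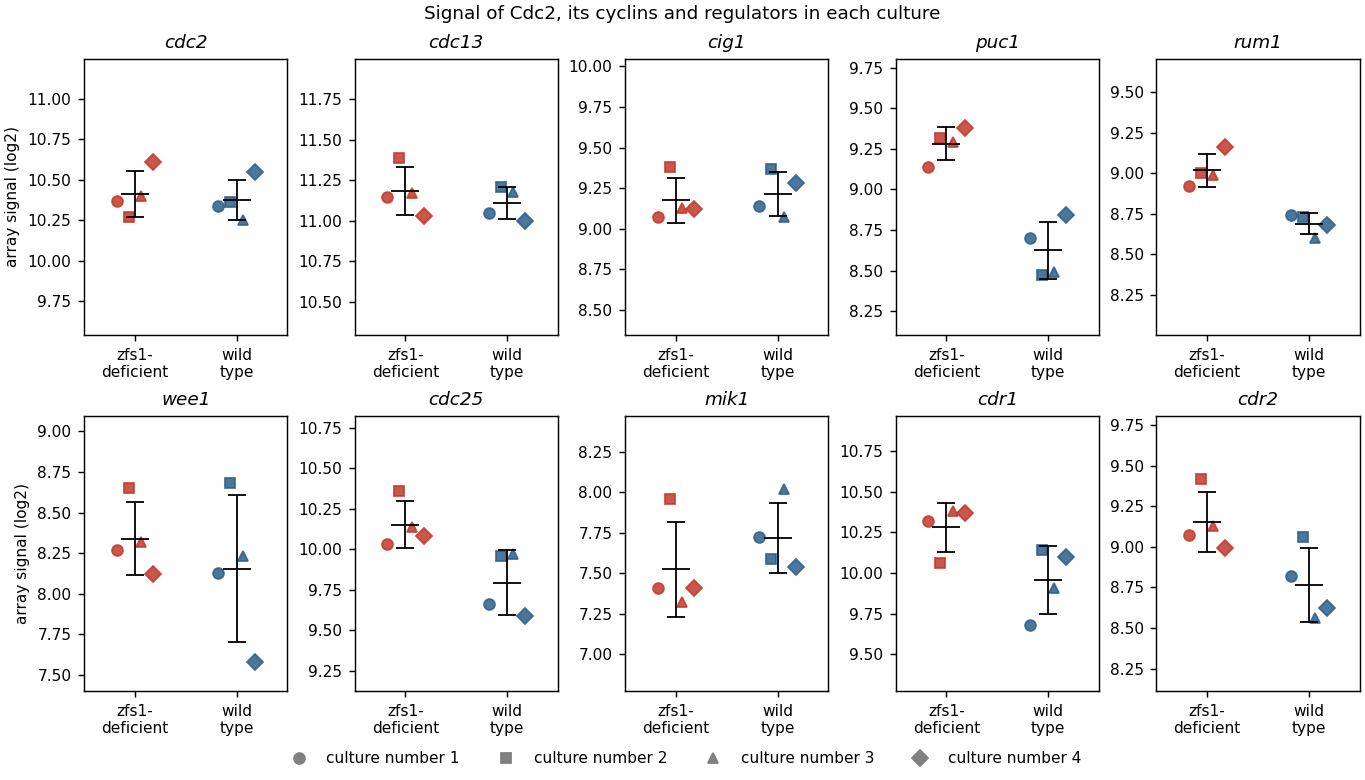
Array signal (log2, vertical axis, the same span of 1.7 in every panel but a different centre) of each gene in the 4 zfs1-deficient cultures (red, left) and the 4 wild-type cultures (blue, right). The marker shape is the culture number, and bars are the mean ± SD. The strains do not overlap for puc1, rum1 and cdc25, and wild-type culture 4 is the lowest point for wee1, at 7.58.

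cdc2 (SPBC11B10.09), which encodes the kinase, had signals of 10.37, 10.27, 10.40 and 10.61 in zfs1-deficient cultures 1 to 4, against 10.34, 10.36, 10.25 and 10.55 in wild-type cultures 1 to 4. The culture numbered 4 was the highest in both strains, and the strains overlapped. The means were 10.41 ± 0.14 and 10.37 ± 0.13 (SD, n = 4 each), a difference of 0.04 ± 0.10 (SE; limma adjusted p = 0.877). The 95% interval of this difference ran from -0.19 to 0.27.

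The mitotic B-type cyclin gene cdc13 (SPBC582.03), whose protein is required for entry into mitosis, had signals of 11.15, 11.39, 11.17 and 11.03 in zfs1-deficient cultures, against 11.05, 11.21, 11.18 and 11.00 in wild-type cultures. Here the cultures numbered 4 were the lowest and those numbered 2 the highest of each strain. The strains overlapped, and the difference was 0.08 ± 0.09 (SE; adjusted p = 0.681), with a 95% interval from -0.13 to 0.28. The difference was 0.009 with zfs1-deficient replicate 2 left out, 0.129 with zfs1-deficient replicate 4 left out and 0.043 with wild-type replicate 4 left out. The second B-type cyclin gene, cig1 (SPCC4E9.02), had 9.07, 9.38, 9.13 and 9.12 in zfs1-deficient cultures, against 9.14, 9.37, 9.07 and 9.28 in wild-type cultures. It was highest in the cultures numbered 2 of both strains, and its difference was -0.04 ± 0.11 (SE; adjusted p = 0.883; 95% interval -0.29 to 0.21).

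puc1 (SPBC19F5.01C) encodes a cyclin related to the G1 cyclins of budding yeast, which acts with Cdc2 towards the start of the cycle. Its signals were 9.14, 9.32, 9.29 and 9.38 in zfs1-deficient cultures 1 to 4, against 8.70, 8.47, 8.49 and 8.84 in wild-type cultures 1 to 4. The lowest zfs1-deficient culture, number 1, lay above the highest wild-type culture, number 4. puc1 averaged 9.28 ± 0.10 in the zfs1-deficient strain and 8.62 ± 0.17 in wild type (SD, n = 4 each), a difference of 0.66 ± 0.12 (SE; adjusted p = 0.0126). The 95% interval of the rise was 1.32-fold to 1.89-fold. By the size of its difference puc1 stood at percentile 93.5 of the tested probe sets, and its p was number 101 in rank order. Within the numbered pairs it was higher by 0.45, 0.84, 0.80 and 0.54. Without both arrays numbered 4 the difference was 0.70 (adjusted p = 0.00734). Leaving out 1 array at a time gave 0.61 to 0.73, and the call was lost in 1 of the 8 fits, that without zfs1-deficient replicate 3, where the difference was 0.65 (adjusted p = 0.0520).

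rum1 (SPBC32F12.09) encodes the inhibitor that keeps Cdc2 with Cdc13 inactive in G1 and is needed for arrest there under nitrogen starvation. Its signals were 8.92, 9.00, 8.99 and 9.16 in zfs1-deficient cultures 1 to 4, against 8.74, 8.73, 8.60 and 8.68 in wild-type cultures 1 to 4. All 4 zfs1-deficient cultures lay above all 4 wild-type cultures, and the replicate SD was 0.098 in the zfs1-deficient strain and 0.065 in wild type. The difference was 0.33 ± 0.10 (SE; adjusted p = 0.0904) without the block, with a 95% interval from 0.11 to 0.55. In the blocked fit it was 0.33 ± 0.09 (SE; adjusted p = 0.0289), and the call was lost there once both arrays numbered 4 were also left out (0.28, adjusted p = 0.0907). It also passed in a fit without a variance trend (adjusted p = 0.0492). Within the numbered pairs rum1 was higher by 0.18, 0.27, 0.39 and 0.47.

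The genes of the kinases that add the inhibitory phosphate to Cdc2 were not called, and their differences had the largest SEs of the 10. wee1 (SPCC18B5.03), whose loss makes cells divide at a small size, had signals of 8.27, 8.65, 8.32 and 8.12 in zfs1-deficient cultures, against 8.13, 8.68, 8.23 and 7.58 in wild-type cultures. In both strains culture 2 was the highest and culture 4 the lowest, and the strains overlapped. The difference was 0.19 ± 0.22 (SE; adjusted p = 0.691; 95% interval -0.31 to 0.68). It was -0.008 without wild-type replicate 4 and 0.065 without both arrays numbered 4. mik1 (SPBC660.14), the second Wee1-type kinase gene, had 7.41, 7.96, 7.32 and 7.41 in zfs1-deficient cultures, against 7.72, 7.59, 8.02 and 7.54 in wild-type cultures. Its zfs1-deficient culture 2 lay above 3 of the 4 wild-type cultures, while the other 3 lay below all of them. The difference was -0.19 ± 0.18 (SE; adjusted p = 0.599; 95% interval -0.59 to 0.21). Leaving out 1 array at a time gave -0.335 (without zfs1-deficient replicate 2) to -0.091 (without wild-type replicate 3).

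cdc25 (SPAC24H6.05), which encodes the phosphatase that activates Cdc2, had signals of 10.03, 10.36, 10.14 and 10.08 in zfs1-deficient cultures 1 to 4, against 9.66, 9.96, 9.97 and 9.59 in wild-type cultures 1 to 4. The strains did not overlap, with a gap of less than 0.1 between zfs1-deficient culture 1 and wild-type culture 3. The difference was 0.36 ± 0.12 (SE; adjusted p = 0.134) without the block and 0.36 ± 0.07 (SE; adjusted p = 0.0114) with it. The 95% interval without the block ran from 0.08 to 0.64. Within the numbered pairs cdc25 was higher by 0.37, 0.40, 0.18 and 0.49. Without both arrays numbered 4 the cdc25 difference was 0.32 and missed the threshold without the block (limma adjusted p = 0.127). With the block it passed there (adjusted p = 0.0416), in a fit chosen after seeing the data.

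The genes of the cortical kinases that restrain Wee1 were both higher in mean. cdr2 (SPAC57A10.02), whose protein organises the cortical nodes at the cell middle, had signals of 9.07, 9.42, 9.13 and 8.99 in zfs1-deficient cultures, against 8.82, 9.06, 8.56 and 8.62 in wild-type cultures. The strains overlapped only through wild-type culture 2, which lay above zfs1-deficient culture 4. The difference was 0.39 ± 0.14 (SE; adjusted p = 0.167) without the block and 0.39 ± 0.09 (SE; adjusted p = 0.0156) with it, and the pairs were higher by 0.24, 0.36, 0.57 and 0.37. Without both arrays numbered 4 the cdr2 difference was 0.39 and missed the threshold without the block (limma adjusted p = 0.131). With the block it passed there (adjusted p = 0.0442), in a fit chosen after seeing the data. cdr1 (SPAC644.06C), also known as nim1, had 10.32, 10.06, 10.38 and 10.37 in zfs1-deficient cultures, against 9.68, 10.14, 9.91 and 10.10 in wild-type cultures. Its zfs1-deficient culture 2 fell among the wild-type cultures and the other 3 lay above them. The difference was 0.32 ± 0.13 (SE) and missed the threshold without the block (adjusted p = 0.188) and with it (adjusted p = 0.0698).

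**Figure D2:**
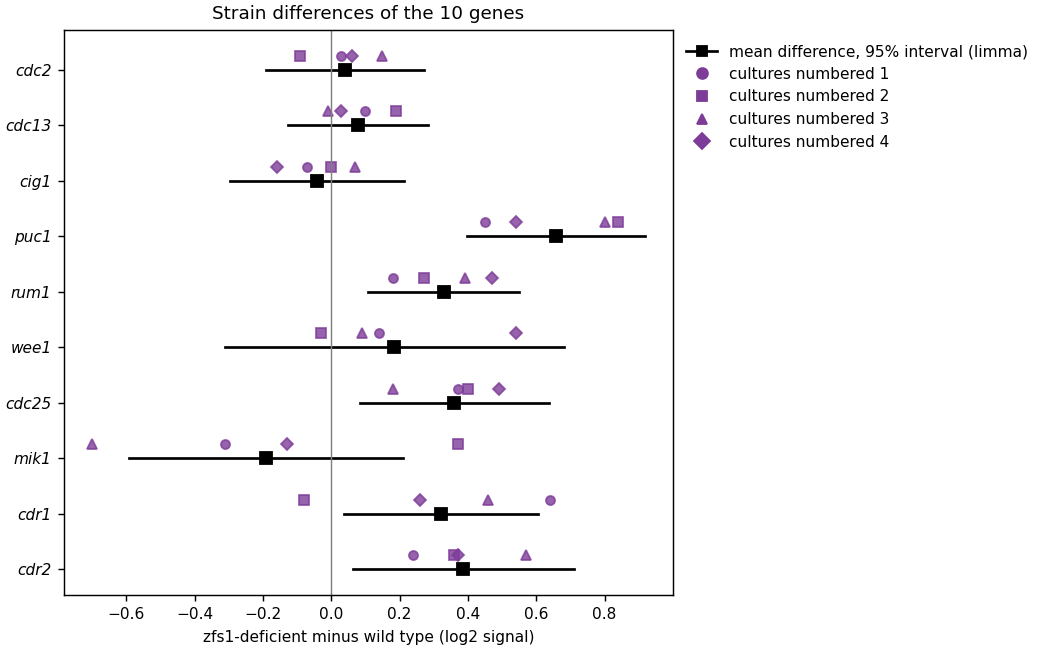
Difference in log2 signal, zfs1-deficient minus wild type, for each gene. Black squares and lines are the mean difference and its 95% interval in the fit without the block, and purple markers are the 4 same-numbered pairs of cultures. All 4 pairs lie above 0 for puc1, rum1, cdc25 and cdr2, and the interval of puc1 runs from 0.40 to 0.92.

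Each array's deviation from its strain mean was compared between genes over the 8 arrays, which share RNA preparation, array and scaling, so the correlations are descriptions. Same-numbered arrays also deviated together across all probe sets (r between 0.26 and 0.70). Of the 45 pairs of genes, the highest r over 8 arrays was that of cdc13 with cdc25 (0.87), followed by wee1 with cdc25 (0.83) and cdc13 with wee1 (0.81), and the lowest were cdc2 with cdc13 (-0.82), puc1 with wee1 (-0.71) and cdc2 with wee1 (-0.70). Over the 6 arrays left without the number 4, r was 0.94 for cdc13 with cdc25, 0.75 for wee1 with cdc25, 0.82 for cdc13 with wee1, -0.67 for cdc2 with cdc13, -0.21 for puc1 with wee1 and -0.13 for cdc2 with wee1. The order of the pairs differed there, since cig1 with cdr2 had the highest r (0.96, against 0.79 over 8 arrays) and cdc2 with mik1 the lowest (-0.98, against -0.69). In the arrays numbered 4, cdc2 was 0.19 and 0.18 above its strain mean and wee1 was 0.22 and 0.58 below it (zfs1-deficient and wild type).

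**Figure D3:**
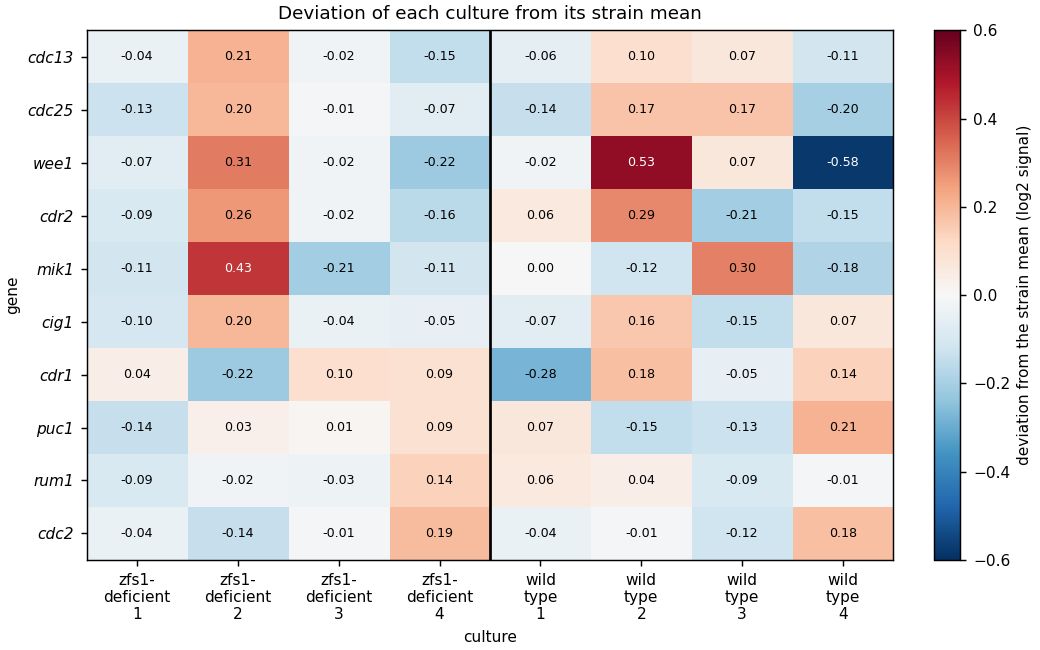
Deviation of each culture's log2 signal from the mean of its strain, by gene (rows) and culture (columns), with zfs1-deficient cultures left of the black line and wild-type cultures right of it. Culture 2 of both strains is above its strain mean, and culture 4 below it, for cdc13, cdc25, wee1 and cdr2, while cdc2 is highest in culture 4 of both strains.

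The genes whose 8 signals followed those of puc1 most closely, among 2880 probe sets with 1 gene symbol, were pfl8, a flocculin gene (r = 0.98), rhp14, a nucleotide excision repair gene (r = 0.98) and gef3, a guanine nucleotide exchange factor gene (r = 0.97). All 3 were called higher in the zfs1-deficient strain, pfl8 by 2.06, rhp14 by 0.69 and gef3 by 0.59 (adjusted p between 0.00745 and 0.0347), so the likeness includes the shift between strains. Closest to rum1 were the S-phase cyclin gene cig2 (r = 0.95), rhp14 (r = 0.95) and mug51 (r = 0.95), which also rose, mug51 by 0.81 (adjusted p = 0.0135). Closest to cdc25 were tcg1 (r = 0.96) and the ribosomal protein genes rps403 (r = 0.95) and rps1501 (r = 0.94), and closest to cdr2 were pof11 (r = 0.96), the alpha-tubulin gene atb2 (r = 0.96) and akr1 (r = 0.94). None of these last 6 was called (limma adjusted p between 0.0629 and 0.406).

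The remaining partners of Cdc2 were read from the same fit, where 5.78% of all tested probe sets were called without the block. Of 7 genes for Cdc2 partners, activating kinases and the opposing phosphatase Clp1, 1 rose, cig2 (SPAPB2B4.03), the gene of the S-phase B-type cyclin that Rum1 also inhibits. Its signals were 10.80, 10.85, 10.90 and 11.26 in zfs1-deficient cultures 1 to 4, against 10.24, 10.24, 10.31 and 10.38 in wild-type cultures 1 to 4. The strains did not overlap, and the difference was 0.66 ± 0.11 (SE; adjusted p = 0.0107). It kept its call in all 8 fits with 1 array left out (0.56 to 0.71, highest adjusted p = 0.0410). Of the 4 cyclin genes cdc13, cig1, cig2 and puc1, the last 2 rose and the B-type genes cdc13 and cig1 were not called. The median of the 7 genes was -0.09, and suc1, which encodes a small subunit bound to Cdc2, differed by -0.18 (adjusted p = 0.558).

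Of 14 genes that act on Wee1, on Cdc25 or, like Cdc25, on Cdc2, none was called without the block (limma; 1 had an unadjusted p under 0.05). With it 1 rose and 1 fell. Among all tested probe sets 5.78% were called without the block, 24.2% were called with it and 20.6% had an unadjusted p under 0.05. The one that rose with the block was pyp3 (SPAC11E3.09), whose tyrosine phosphatase acts on Cdc2 alongside Cdc25, by 0.43 (adjusted p = 0.0142 with the block and 0.0799 without). The one that fell with the block was sal3 (SPCC1840.03), which encodes the importin that carries Cdc25 into the nucleus, by 0.25 (adjusted p = 0.0317 with the block and 0.252 without). pom1, the polarity kinase gene upstream of Cdr2, differed by -0.004 (adjusted p = 0.995). The median of the 14 was 0.03.

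Of 19 measured genes for the destruction of cyclins and Rum1, none was called without the block (limma; 1 had an unadjusted p under 0.05) and 2 rose with it. Over all tested probe sets 5.78% were called without the block, 24.2% were called with it and 20.6% had an unadjusted p under 0.05. The 2 that rose with the block are given as values of the list. These were apc10 (SPBC1A4.01), of the anaphase-promoting complex, by 0.46 (adjusted p = 0.0474 with the block and 0.119 without), and pop2 (SPAC4D7.03), an F-box gene of the ubiquitin ligase that marks Rum1 for destruction, by 0.35 (adjusted p = 0.0144 with the block and 0.308 without). Of the same list, mfr1 had too few values to be tested. The median of the 19 was 0.06.

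Transcripts that peak at different stages of the cycle were read from the same fit. Its share of calls over all tested probe sets was 5.78% without the block and 24.2% with it. Of 9 transcripts of G1 and S phase 1 rose without the block, cig2, and 2 with it, cig2 and yox1, which encodes a repressor of the same transcription wave and was higher by 0.54 (adjusted p = 0.0145 with the block and 0.0682 without). The replication gene cdc18 differed by 0.15 (adjusted p = 0.785) and the ribonucleotide reductase gene cdc22 by -0.02 (adjusted p = 0.946), and the median of the 9 was 0.15. Of 10 measured transcripts of mitosis and septation none was called without the block (limma; 0 had an unadjusted p under 0.05) and 1 rose with it, adg2, by 0.27 (adjusted p = 0.0449 with the block and 0.500 without). All 10 had a mean above that of wild type, by 0.06 to 0.35, and their median was 0.20. Higher means were found for 2353 of the 4969 tested probe sets, whose median was -0.01. An unadjusted p under 0.05 (limma) was reached by 20.6% of them.

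**Figure D4:**
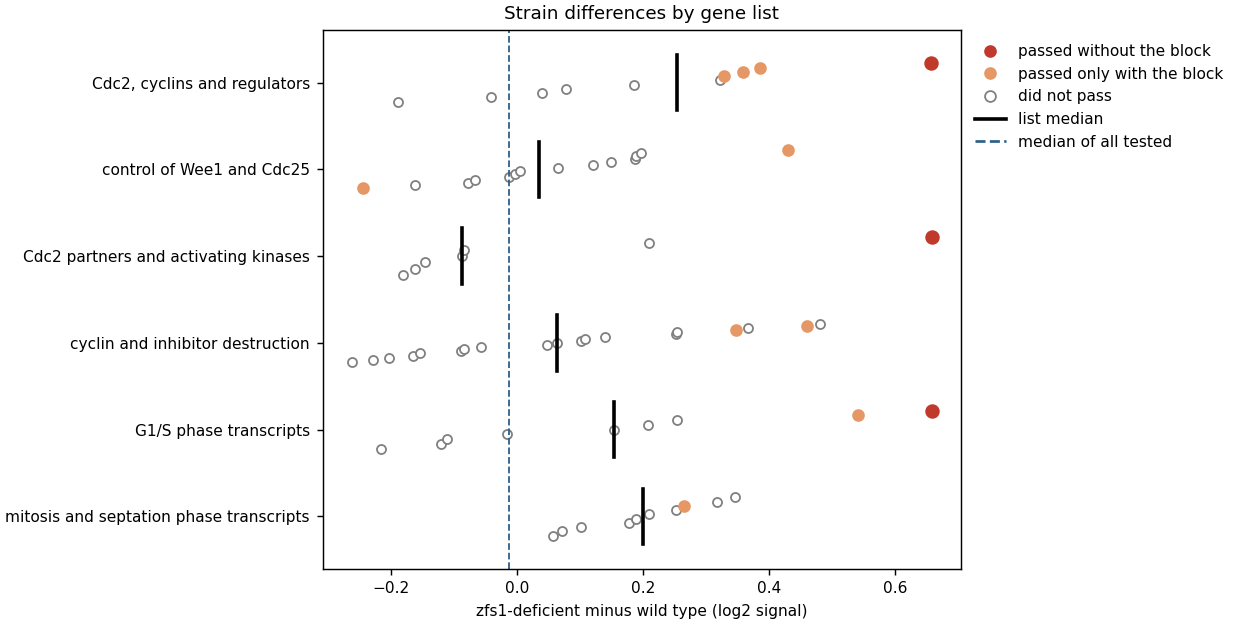
Difference in log2 signal, zfs1-deficient minus wild type, of each measured gene in 6 lists. Red points passed the test without the replicate block, orange points only with it and open points in neither fit. Black bars are list medians, from -0.09 for the Cdc2 partners to 0.25 for the 10 genes, and the dashed line at -0.01 is the median of all tested probe sets.

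Markers of other cell states were read beside the rise of puc1. Over all tested probe sets 5.78% were called without the block, 24.2% were called with it and 20.6% had an unadjusted p under 0.05 (limma). Of 5 measured meiotic genes 2 passed the test without the block, spo6, which was higher by 1.59 (adjusted p = 0.0185), and isp3 (adjusted p = 0.0498). With the block mei4 also passed, at 0.74 (adjusted p = 0.0209 with the block and 0.163 without). For isp3 no size or rise is given, since it exceeded the brightest reporter control on 1 of the 8 arrays. The summed linear signal of the 5 ran from 292 to 504 in zfs1-deficient cultures, against 144 to 245 in wild-type cultures. rec8 lay above the brightest reporter control on 0 arrays and crs1 on 3. spo6 did so on all 8, but was close to it in wild-type culture 2 (5.31, against 5.11 for the control). Of 4 P-cell genes 1 rose, sxa1, by 0.31 (adjusted p = 0.0125), and map2 fell with the block, by 0.50 (adjusted p = 0.0299 with the block and 0.343 without). map1 differed by -0.02 and map3 by -0.12 (adjusted p of 0.987 and 0.735). The summed signal of the 4 was 3900 to 4150 in zfs1-deficient cultures, against 3280 to 3600 in wild-type cultures, and that of the 3 genes other than sxa1 was 254 to 378 in zfs1-deficient cultures, against 282 to 456 in wild-type cultures. Of 5 tested M-cell genes 0 were called by limma in either fit (0 had an unadjusted p under 0.05), and the summed signal with mfm1, which lay above the controls on no array, was 1150 to 1720 in zfs1-deficient cultures, against 1050 to 1530 in wild-type cultures. The median signal of the reporter controls was 3.40 to 4.31 in zfs1-deficient arrays, against 3.07 to 3.47 in wild-type arrays. The part of these markers and controls in the puc1 difference was not tested. With an offset of 64 added to every linear signal, which shrinks differences near background, the puc1 difference was 0.58 (adjusted p = 0.0126).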

How the data were processed

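Per the labels' protocols, biotin-labelled cRNA made from total RNA was hybridised to Affymetrix arrays and read with the GeneChip Operating Software. A nematode array is named in the labels, while the probe table used here gives fission yeast genes for these probe sets. The authors deposited log10 signals. The log10 base was read from the values (array medians of 2.892 to 2.904, maxima of 3.94 to 3.99). Scaling and summary steps are not given in the sources used here. If the base were another, log2 values and differences would be multiplied by 1 factor and folds raised to that power, and the p-values without an offset would not change. Values were converted to log2 and not normalised further. Tests excluded the 17 reporter controls. Of 4994 probe sets, 4969 with at least 2 values in each strain were tested. Gene symbols were brought up to date with a gene table, matched on identifiers (2913 of 2916 probe sets with 1 symbol were found). Systematic names are those of that table.

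Strain differences were fitted in R 4.3.3 with limma 3.58.1 (variance trend, 2-sided, Benjamini-Hochberg over 4969), checked on simulated arrays. There, 6.63% of the calls made without the block were false. The simulated noise was independent and equal between arrays, unlike the real arrays, so this share may not hold for the real calls. The simulated arrays held no pairs, so the fit with the block was not checked. Figures used matplotlib 3.10.9. Between the strains, arrays with the same number deviated together from the strain means (r = 0.37, 0.33, 0.26 and 0.70 for numbers 1 to 4 across probe sets). Each r exceeded the limit of 0.1, and the numbers were therefore treated as pairs. Some arrays with different numbers also exceeded this limit, such as zfs1-deficient 1 with wild-type 3 (0.25), so it does not single out this pairing. The labels do not say what a number marks, and wild-type 1 with zfs1-deficient 3 reached 0.41. The labels give 4 replicate cultures per strain, and the number of arrays limits the precision.

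The genes and lists were chosen with earlier results of these data known. Named were the 10 genes, zfs1, up to 4 called genes of each list, and the 3 genes most like each of 4 members. Genes named with the block, and pom1, suc1, cdc18, cdc22 and mfm1, were picked with their values in view. The alternatives were the block, median centring, quantile normalisation, an offset, leaving out dim probe sets, array weights, no variance trend, and leaving out arrays. Sequences were not used here.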

Additional observations from a re-analysis of the deposited data

Results flagged for a closer look

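Within the 20 sets of 4 cultures (10 genes in each strain), 2 held a culture far from the other 3 by Dixon's criterion, where chance gives about 1 in 20, and both were zfs1-deficient culture 2. For mik1 this culture had a signal of 7.96, with the next at 7.41. Without it the mik1 difference was -0.34 (limma adjusted p = 0.309), and without wild-type replicate 3 it was -0.091 (adjusted p = 0.844). For cdr1 the same culture had a signal of 10.06, with the next at 10.32. Without it the cdr1 difference was 0.40 (adjusted p = 0.143).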

How the results depend on the processing

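The puc1 rise kept its direction in all 17 alternatives and its call in 16 (0.58 to 0.73), and was lost only without zfs1-deficient replicate 3. Of the 10 genes, 1 was called, and this became 4 with the replicate block, 5 with array weights (puc1, rum1, cdc25, cdr1 and cdr2), 2 without a variance trend and 3 with the replicate block and without both arrays numbered 4 (puc1, cdc25 and cdr2; an alternative chosen after seeing the data), and lay between 0 and 1 with 1 array left out. Over all probe sets 287 were called, against 1201 with the replicate block, 1517 with array weights, 609 without both arrays numbered 4, 888 with the replicate block and without both arrays numbered 4, and 103 to 306 with 1 array left out (103, 117 and 182 without zfs1-deficient replicates 3, 1 and 2, and 127, 150 and 151 without wild-type replicates 1, 2 and 3). The block changed no call of the other 6 genes among the 10. Differences near 0 changed sign in some fits with 1 array left out: cdc2 ran from -0.025 to 0.098, with -0.002 without wild-type replicate 3, cig1 from -0.109 to 0.010, and wee1 from -0.008 to 0.360. cdc13, cdc25, mik1, cdr1, cdr2 and rum1 kept their direction in every alternative run. wee1 and mik1 were among the dimmest 25% of probe sets and have no value without these. The fit with array weights leaned on zfs1-deficient replicates 1 and 3, with weights of 6.55 and 5.50, against 0.18 to 2.26 for the other arrays. The planned comparison of several probe sets per gene was not run, since each gene had 1. The 4 arrays per strain limit the precision, with replicate SDs of 0.222 and 0.453 for wee1 and of 0.293 and 0.213 for mik1 (zfs1-deficient and wild type).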
